A study of Mus musculus with 24 samples.

Results

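Gene expression was compared between quiescent C2C12 myoblasts and the same kind of cells 2 h after they had been put back on a surface, all of them treated with a negative control siRNA. The comparison took the 3 arrays of control cells labelled as 2 h after replating and the 3 labelled as quiescent, which are 6 of the 24 arrays of the series, and it was made across all genes on the array. C2C12 is an established line of mouse skeletal muscle myoblasts, so every group derives from 1 line. Quiescent cells had been kept in suspension and replated cells had been returned to adherent culture after suspension. Both were in DMEM with 20% FBS, so serum was present before and after replating. Also compared are proliferating control cells, which grew attached in the same medium (3 arrays). Quiescent and replated cells treated with siRNA against IFT88, a transport protein of the primary cilium, are compared as well (IFT88KD, 3 arrays each). The remaining groups are proliferating IFT88KD cells and differentiating cells of both siRNA treatments, the latter in differentiation medium with less serum (3 arrays each). These groups were not compared, but their arrays entered the normalisation, the filter on low values and the fit. The labels do not say whether the 3 arrays of a group came from separate cultures. The p-values therefore measure only the spread between arrays within groups, which may be technical. That spread was estimated in 1 fit over all 24 arrays, so states other than the compared ones contribute to it.

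Myoblasts need a surface to proliferate, and without one they leave the cell cycle and stay undifferentiated. When a cell attaches, integrins bind the matrix and gather focal adhesion proteins that anchor actin filaments. Actin assembly releases coactivators that work with the serum response factor SRF, and tension lets YAP work with TEAD factors, while growth factor signalling through MAP kinases switches on immediate early genes. These programmes, together with Foxo factors, which hold resting cells in arrest, and ribosome synthesis, which returns with growth, were described as gene lists.

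Replated arrays were dimmer overall. As deposited, the median over all probe sets was 2.92 to 2.98 log2 on the replated arrays and 3.80 to 3.84 on the quiescent arrays. The mean 95th percentile was 8.44 against 8.75, and the mean maximum 12.36 in both groups. Taken per probe set, the median change was -0.30 over all sets. It was -0.12 over 12 sets for RNA added at hybridisation, which differed by -0.29 to 0.02. The ratio of the 3′ to the 5′ probe sets of Gapdh, a measure of how complete the RNA or its copy was, was also higher after replating, at 0.879, 1.22 and 1.55 log2 against 0.557, 0.451 and 0.401, and its part in the results was not tested. Values below are log2 after quantile normalisation, which gives all arrays the same distribution, and a difference of 1 is a 2-fold change. Of 8597 genes tested, 5527 differed at an adjusted p under 0.05 in limma (64.3%), 2339 higher (27.2%) and 3188 lower (37.1%) after replating. The split moved with the scaling, since 42.3% of called genes were higher after quantile normalisation, 12.6% as deposited and 68.9% with each array centred on its median. The median change of all genes was -0.10, -0.61 and 0.25 under these 3 scalings. In what follows, "rose" and "fell" are therefore used only for genes past the threshold in the same direction under all 3 scalings, which held for 827 genes higher (9.62%) and 1799 lower (20.9%). A list is described by its median change relative to that of all genes, which is the same as deposited and after centring. Levels are compared between groups for 1 gene and never between genes, and in these bulk samples fewer cells of a type and less RNA per cell cannot be told apart.

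**Figure D1:**
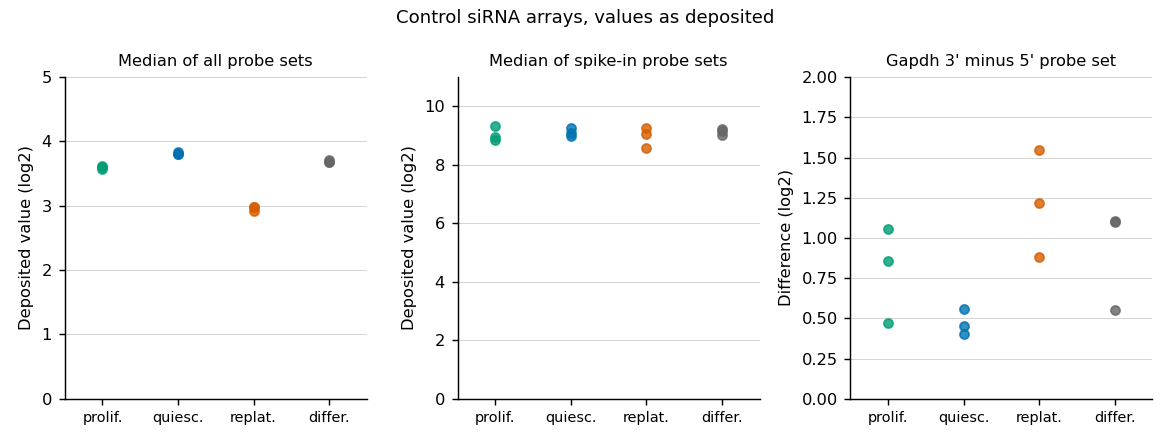
Properties of the 12 control siRNA arrays by state, differentiating cells included. The panels give, on log2 scales, the deposited median of all probe sets, the median of 12 hybridisation spike-in sets and the 3′ minus 5′ difference for Gapdh, with 1 point per array. Replated arrays have the lowest medians (2.92 to 2.98) and the 3 highest Gapdh differences of the quiescent and replated arrays, while the spike-in medians overlap.

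Of genes past the threshold, 590 were at least 1 log2 higher (6.86%) and 743 at least 1 log2 lower (8.64%). The 15 largest rises included secreted growth factors and cytokines (Pdgfb, Inhba, Hbegf, Il6, Il11, Ccl5), the matricellular proteins Ccn2 and Ccn4, the hyaluronan synthase Has1 and the protease inhibitor Serpinb2. They also held Olr1, a scavenger receptor, Arc, an activity-regulated cytoskeletal protein, Nfatc1, a calcineurin-regulated transcription factor, the kinase gene Alpk2 and Spsb1, a ubiquitin ligase adaptor. The 15 largest falls included the thioredoxin inhibitor Txnip, the AP-1 subunit Fos, the differentiation inhibitors Id2 and Id3, the CDK4 and CDK6 inhibitor Cdkn2d, the vasodilator peptide gene Adm, the prostaglandin receptor Ptgfr, the G-protein regulator Rgs4 and the Wnt antagonist Dkk2. The others were Etfbkmt, a mitochondrial lysine methyltransferase, Narf, Ankmy2, Oxld1, Rab40b and Zfp810. By the rule that chose them, the replated and quiescent arrays of these 30 genes did not overlap. Olr1, Arc and Il11 were below the 40th percentile on every quiescent array, and Adm, Oxld1, Ptgfr, Rab40b and Zfp810 on every replated array, so the size of their changes is uncertain. Other probe sets existed for 12 of the 30 genes, and all 19 of these had the same sign, although 10 gave a change smaller by over 1.5 times.

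**Figure D2:**
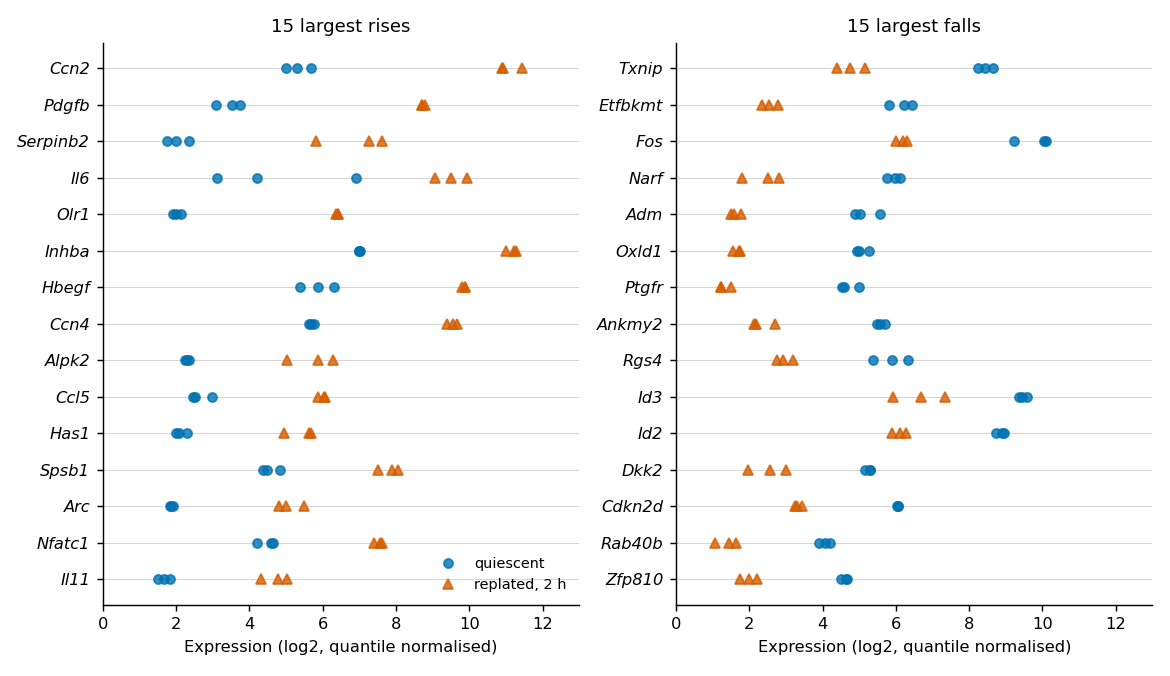
The 15 largest rises and 15 largest falls, replated minus quiescent, control siRNA. Each row shows the log2 values of the 3 quiescent and 3 replated arrays, which do not overlap for any of the 30 genes. Changes range from 5.74 log2 (Ccn2) to -3.67 (Txnip).

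The largest rise was in Ccn2, a secreted matricellular protein that is a known target of YAP and TEAD. It read 11.43, 10.88 and 10.91 log2 on the replated arrays and 5.01, 5.31 and 5.68 on the quiescent arrays. The rise was 5.74 log2 (SE 0.35, limma adjusted p = 5.0e-11), and the replated level also lay above the proliferating mean of 7.24. Of 16 known YAP and TEAD targets tested, 12 were called higher and none lower, and 8 rose under all 3 scalings. Their median lay 1.07 log2 above that of all genes, and 1.04 as deposited or centred. Ccn1, a close relative of Ccn2, read 9.28, 8.80 and 8.71 after replating and 6.51, 7.13 and 7.39 in suspension, a rise of 1.92 (SE 0.22, adjusted p = 2.2e-07). Amotl2, an angiomotin that binds YAP, read 7.82, 8.26 and 8.05 against 5.54, 6.18 and 6.12, a rise of 2.09 (SE 0.14, adjusted p = 2.3e-10). The arrays of neither gene overlapped, and the replated Amotl2 level was 0.02 from its proliferating mean of 8.02. Ankrd1, a muscle ankyrin repeat protein, read 8.90, 8.00 and 7.85 against 7.16, 6.90 and 7.01. It rose by 1.23 (SE 0.29, adjusted p = 8.7e-04) but stayed below the proliferating mean of 9.54, and another probe set gave 0.59. Wwc1, a scaffold protein upstream in the Hippo pathway, rose by 2.01, and Crim1 by 1.36. Tgfb2 (0.59), Myof (0.23), Ptpn14 (0.10) and Axl (-0.15) did not pass the test. Same-numbered replated and quiescent arrays deviated together, and with the replicate number as a block Tgfb2 and Myof did pass (adjusted p = 0.0040 and 0.027).

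Promoter sequence was available for 14 of the 16 YAP targets, and 8 of them (57.1%) held the TEAD motif CATTCC on either strand within the 300 bases around the start site, against 14.6% of 27025 mouse promoters. The list consists of known targets, so this is a description of the list, not a result of these arrays. Of the holders, Ccn1, Ankrd1, Amotl2 and Crim1 rose, and Ajuba (0.78) and Lats2 (0.90) were called higher but not under all 3 scalings. Axl (-0.15) and Ptpn14 (0.10) hold the motif and did not pass, and Gadd45b rose by 1.35 without a match. The promoters of 3 risers are shown, with the motif or its reverse complement GGAATG in capitals. Sequences are from RefSeq, build GRCm38.p6, and end at the base before the transcription start, 5′ to 3′ on the gene's strand: Ccn1 at chr3:145649986-145650135 (minus strand), Ankrd1 at chr19:36119845-36120094 (minus strand) and Amotl2 at chr9:102717654-102717803 (plus strand).
Ccn1: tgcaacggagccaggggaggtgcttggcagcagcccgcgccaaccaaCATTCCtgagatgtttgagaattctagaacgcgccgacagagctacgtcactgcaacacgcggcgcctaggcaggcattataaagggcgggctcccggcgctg
Ankrd1: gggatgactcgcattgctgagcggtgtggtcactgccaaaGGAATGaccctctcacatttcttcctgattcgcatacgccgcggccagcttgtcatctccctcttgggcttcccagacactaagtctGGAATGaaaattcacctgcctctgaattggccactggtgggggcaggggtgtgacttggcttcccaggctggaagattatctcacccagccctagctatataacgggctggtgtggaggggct
Amotl2: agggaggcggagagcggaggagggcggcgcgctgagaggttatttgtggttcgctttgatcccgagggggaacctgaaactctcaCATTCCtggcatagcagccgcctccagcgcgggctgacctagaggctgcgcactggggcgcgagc
Ankrd1 carries 2 matches in this stretch and the other genes 1 each. A match is a run of letters and not a measured site.

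Genes of SRF and the actin cytoskeleton moved less. Of 32 tested, 17 were called higher and 3 lower, and 8 rose and none fell under all 3 scalings, with a median 0.39 above all genes (0.62 as deposited or centred). Srf itself read 8.11, 7.33 and 7.45 after replating and 6.07, 6.14 and 6.05 in suspension, a rise of 1.54 (SE 0.15, adjusted p = 2.3e-08) past its proliferating mean of 5.77. Fhl2, a LIM protein of actin structures, read 8.39, 7.96 and 7.83 against 6.56, 6.95 and 6.88 and rose by 1.26 (SE 0.16, adjusted p = 6.1e-07). The groups of both genes were separate, and replated replicate 1 was the highest array for each. The adhesion protein gene Vcl, for vinculin, read 10.68, 10.34 and 10.40 against 10.02, 9.88 and 9.91, a change of 0.54 (SE 0.11, adjusted p = 1.8e-04). The Vcl change was 0.12 and not past the threshold when its probe sets were averaged. Pdlim7 rose by 1.55 (0.51 with another probe set), Tagln2 by 1.05 and Tagln, for transgelin, by 0.93, whereas Zyx (0.19) and Cfl1 (0.43) did not pass, although Cfl1 did with the replicate block (adjusted p = 0.019). Smooth muscle actin Acta2 did not pass with the brighter of its probe sets (0.13), and a dimmer set changed by 2.22.

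A CArG box, the sequence that SRF binds, lay in the same window of 8 of 29 SRF list promoters (27.6%), against 1.57% of all promoters, again in a list of known targets. The promoters of Srf, Fhl2 and Vcl are shown because these genes were higher after replating. That of Zfp36, an immediate early gene described below, is shown because it fell although it holds a CArG box. Of the other list genes with the box, Actg1 (0.28) and Lima1 (0.69) were called higher after quantile normalisation. Myl9 (-0.65) and Fhl1 (-0.67) were called lower there, and Cnn2 (0.10) did not pass. None of these was called alike under all 3 scalings. Capitals mark the CArG box, and Srf carries 2. The stretches are Srf at chr17:46556163-46556312 (minus strand), Fhl2 at chr1:43196762-43196911 (minus strand), Vcl at chr14:20929148-20929397 (plus strand) and Zfp36 at chr7:28379229-28379378 (minus strand).
Srf: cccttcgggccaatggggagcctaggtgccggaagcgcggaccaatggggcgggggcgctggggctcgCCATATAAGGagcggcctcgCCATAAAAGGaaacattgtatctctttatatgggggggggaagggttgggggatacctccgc
Fhl2: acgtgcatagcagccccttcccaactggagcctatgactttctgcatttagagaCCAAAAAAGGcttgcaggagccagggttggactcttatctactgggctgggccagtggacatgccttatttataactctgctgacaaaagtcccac
Vcl: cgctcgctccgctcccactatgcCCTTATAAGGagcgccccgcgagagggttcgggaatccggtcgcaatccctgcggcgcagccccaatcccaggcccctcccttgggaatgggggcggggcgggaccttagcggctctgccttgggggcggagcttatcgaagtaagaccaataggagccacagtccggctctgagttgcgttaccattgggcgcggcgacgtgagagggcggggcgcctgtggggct
Zfp36: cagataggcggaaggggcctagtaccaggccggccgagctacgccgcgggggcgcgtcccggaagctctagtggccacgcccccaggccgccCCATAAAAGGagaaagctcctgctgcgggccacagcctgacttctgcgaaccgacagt

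Among 20 integrins and focal adhesion genes, 11 were called higher and 1 lower (11 and 2 with the replicate block), and 6 rose under all 3 scalings (median 0.59 above all genes, 0.57 as deposited or centred). The rises included a fibronectin receptor subunit and adaptors of the adhesion. Itga5 read 6.31, 6.90 and 7.10 on replated arrays and 3.69, 4.44 and 4.25 on quiescent arrays, a rise of 2.65 (SE 0.28, adjusted p = 8.3e-08) to well above the proliferating mean of 3.47. Bcar1, the scaffold p130Cas, read 8.78, 8.74 and 8.83 against 7.06, 7.09 and 7.10 and rose by 1.70 (SE 0.08, adjusted p = 1.9e-12). Both genes separated the groups, with a spread between arrays far smaller than the change. Paxillin, Pxn, rose by 1.20, the hyaluronan receptor Cd44 by 1.04, talin, Tln1, by 0.82 and the syndecan Sdc4 by 0.69. Itgb1, the beta subunit that pairs with Itga5, changed by -0.39 (adjusted p = 0.087) and Itgav by 0.08, neither past the threshold, although Itgb1 was past it with the replicate block (adjusted p = 0.0013).

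**Figure D3:**
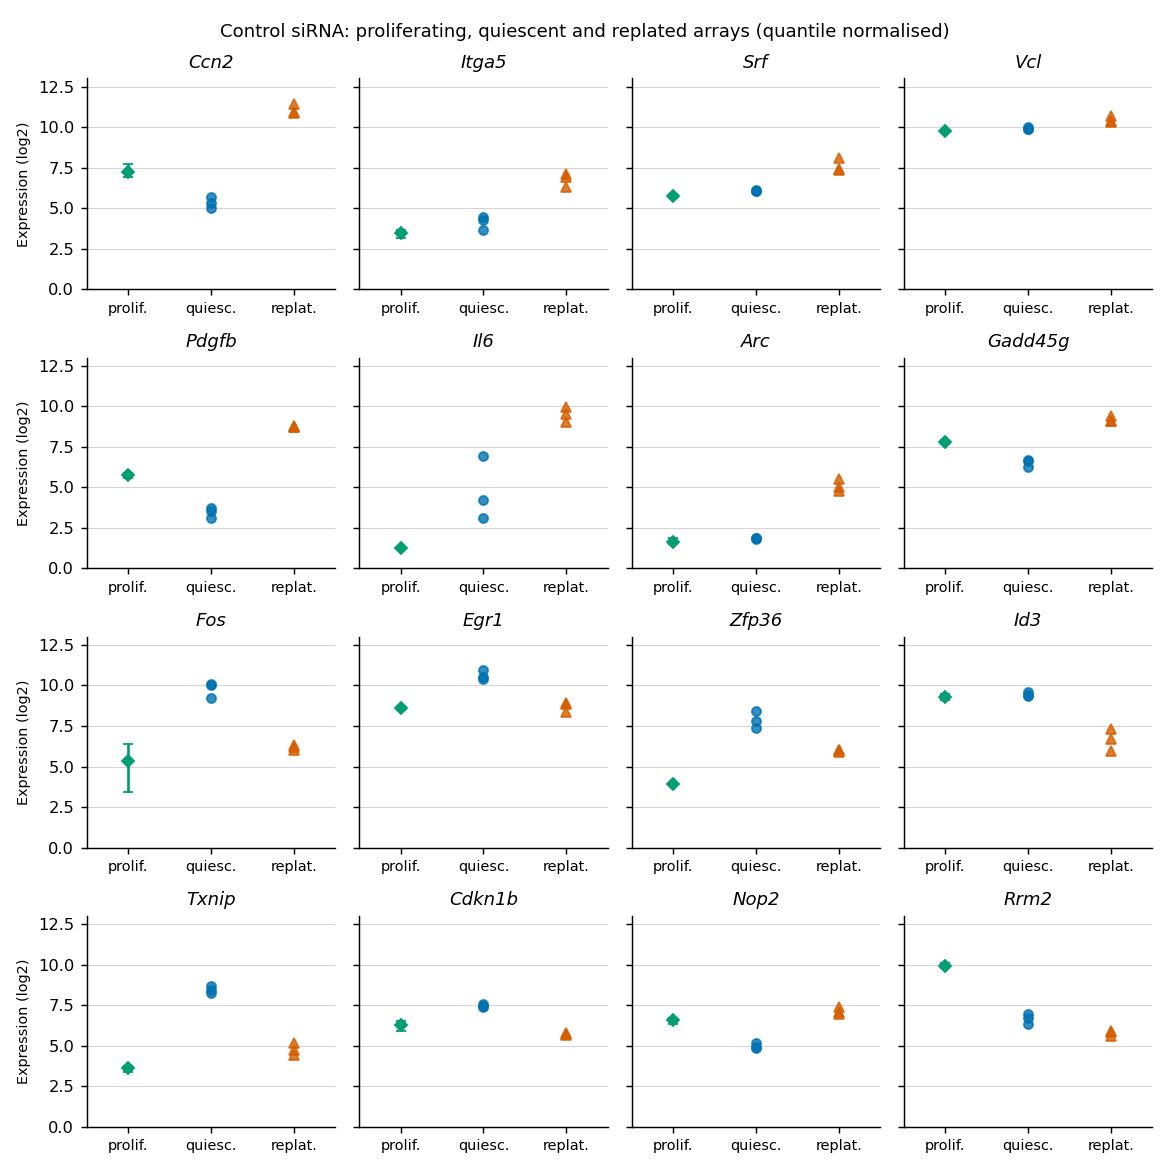
Values of 16 genes in 3 states, control siRNA, in log2 after quantile normalisation. Blue circles are quiescent arrays, orange triangles replated arrays, and green diamonds the proliferating mean with its lowest and highest array. Pdgfb, Itga5 and Srf lie above the proliferating level after replating, Fos and Egr1 fall to near it, and Rrm2 stays far below it in both states.

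Growth factor genes moved in both directions. Of 21 ligands tested, 6 rose and 3 fell under all 3 scalings (9 and 5 after quantile normalisation), with a median 0.48 above all genes and 0.36 as deposited or centred. Among all genes 9.62% rose and 20.9% fell, so only the rises were a larger share in this list. Pdgfb, a chain of platelet-derived growth factor, read 8.80, 8.72 and 8.70 after replating and 3.10, 3.74 and 3.53 in suspension. This rise of 5.28 log2 (SE 0.15, adjusted p = 3.1e-16) took it 2.97 above the proliferating mean, and a dimmer probe set gave 2.55. Its partner chain Pdgfa read 9.24, 9.24 and 9.43 against 6.68, 6.88 and 6.83 and rose by 2.50 (SE 0.11, adjusted p = 4.8e-13). The EGF receptor ligand Hbegf read 9.88, 9.81 and 9.89 against 5.39, 6.30 and 5.87, a rise of 4.01 (SE 0.25, adjusted p = 7.4e-11). The replated arrays of these 3 ligands were tightly grouped and lay above every quiescent array. Csf1, the macrophage growth factor, rose by 1.76 (0.74 and 1.56 with other probe sets). In contrast, the hepatocyte growth factor gene Hgf read 5.71, 5.54 and 5.27 against 6.49, 6.52 and 6.62 and fell by 1.04, and a dimmer probe set changed by -0.28. Betacellulin, Btc, fell by 0.90 (-0.33 with another probe set).

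Inhba, the activin A subunit, read 11.01, 11.22 and 11.27 on replated arrays and 6.99, 7.01 and 6.98 on quiescent arrays, a rise of 4.18 (SE 0.21, adjusted p = 3.2e-12). Inhbb, the activin B subunit, went the other way, from 9.23, 9.10 and 8.95 to 8.07, 7.60 and 7.34, and fell by 1.42 (SE 0.25, adjusted p = 5.0e-05). For each subunit the groups were separate. The activin antagonist follistatin, Fst, read 6.98, 6.85 and 6.58 against 4.78, 4.50 and 4.49 and rose by 2.21 (SE 0.19, adjusted p = 6.5e-09). In the list of 23 TGF-beta, activin and BMP genes, 7 rose and none fell under all 3 scalings (median 0.59 above all genes, 0.73 as deposited or centred). They included the antagonist Fstl3 (1.37) and the inhibitors of SMAD signalling Smad7 (1.43), Skil (1.31), Tgif1 (1.45) and Ski (0.82).

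Inhibitors that act back on the MAP kinase pathway also moved in both directions. Of 14, 6 rose and 4 fell under all 3 scalings, and the median was 0.82 above all genes (0.97 as deposited or centred). The ERK phosphatase gene Dusp7 rose by 1.58, Dusp8 by 1.40, the EGF receptor inhibitor Errfi1 by 1.37 and Spred2 by 1.22. Dusp1, an early-induced MAP kinase phosphatase, read 7.79, 7.34 and 6.95 after replating and 8.23, 8.95 and 9.29 in suspension and fell by 1.46 (SE 0.24, adjusted p = 1.9e-05). Spry1, a Sprouty inhibitor, read 3.94, 4.09 and 4.01 against 5.18, 5.73 and 5.60 and fell by 1.49 (SE 0.21, adjusted p = 3.5e-06). The groups overlapped for neither gene, and Dusp1 remained 1.48 above its proliferating mean (adjusted p = 9.5e-06).

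Several classical immediate early genes were higher in suspension than 2 h after replating. Fos, the AP-1 subunit often used as a marker of fresh stimulation, read 9.22, 10.08 and 10.03 on quiescent arrays and 6.31, 6.0 and 6.20 on replated arrays. It fell by 3.61 (SE 0.65, adjusted p = 6.6e-05) to a level 0.84 above the proliferating mean (adjusted p = 0.24). Egr1, a zinc finger factor, read 10.42, 10.50 and 10.95 against 8.87, 8.36 and 8.90 and fell by 1.91 (SE 0.26, adjusted p = 2.6e-06), to 0.13 from the proliferating mean. No replated array reached a quiescent one for either gene. Zfp36, which destabilises AU-rich messages, read 7.35, 7.80 and 8.44 in suspension and 6.01, 5.90 and 6.05 after replating, a fall of 1.88 (SE 0.19, adjusted p = 4.2e-08). Its relative Zfp36l1 read 9.34, 9.21 and 9.50 against 7.29, 7.38 and 7.50 and fell by 1.96 (SE 0.30, adjusted p = 8.1e-06). Both stayed above their proliferating means, of 3.93 and 6.33, by 2.05 and 1.06. Jun read 8.81, 8.78 and 8.82 in suspension and 8.43, 7.59 and 7.43 after replating, a change of -0.99 that was past the threshold after quantile normalisation but not under all 3 scalings. Junb (-0.13), Fosb (0.10), Atf3 (0.39), Nr4a1 (0.41), Ier3 (0.34) and Egr2 (0.49) did not pass. With the replicate block Nr4a1, Ier3 and Egr2 did (adjusted p = 0.0088, 0.014 and 0.018). For Nr4a1, a nuclear receptor, the quiescent arrays read 8.11, 8.66 and 8.93 against a proliferating mean of 3.99, so its level was high both before and after replating.

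Other early genes rose. Mafk, a small Maf partner of AP-1, read 6.87, 7.24 and 7.33 after replating and 4.98, 4.52 and 4.80 in suspension, and Gadd45g, a stress and growth arrest gene, read 9.40, 9.12 and 9.12 against 6.68, 6.24 and 6.64. Their rises were 2.38 and 2.69, the latter with an SE of 0.16 and an adjusted p of 2.6e-11, with no overlap of arrays. Arc read 4.80, 5.01 and 5.49 against 1.91, 1.86 and 1.82. Myc, the growth regulator, read 8.26, 8.19 and 8.15 against 6.33, 6.79 and 7.43 and rose by 1.35 (SE 0.29, adjusted p = 3.7e-04), the quiescent arrays being the more spread. The nuclear receptor Nr4a2 rose by 2.03, the kinase Plk3 by 1.75 and Snai1 by 1.62. Of 11 AP-1 factors, 2 rose and 1 fell under all 3 scalings, and of 38 other immediate early factors 12 rose and 4 fell. In both lists a larger share rose and a smaller share fell than among all genes (9.62% and 20.9%). The list medians lay 0.20 and 0.45 above all genes, and 0.34 and 0.63 as deposited or centred.

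Cytokine genes of the IL-6 family were among the strongest risers. Il6 read 9.06, 9.51 and 9.93 after replating and 3.11, 4.20 and 6.91 in suspension, against a proliferating mean of 1.27. It rose by 4.76 (SE 0.59, adjusted p = 7.4e-07), and by 5.84 without quiescent replicate 3, the highest quiescent array. Clcf1, a cytokine of the same family, read 7.19, 7.45 and 7.72 against 5.18, 4.26 and 4.43 and rose by 2.83 (SE 0.22, adjusted p = 1.0e-09). Il11 read 4.32, 5.01 and 4.79 against 1.50, 1.83 and 1.67. Lif, leukaemia inhibitory factor, read 5.42, 6.14 and 6.64 against 3.02, 4.09 and 5.35 and rose by 1.91 (SE 0.48, adjusted p = 1.6e-03), or 2.51 without that quiescent array. The replated and quiescent arrays were separate for all 4 cytokines, though for Lif by a margin smaller than the spread within either group. Of 14 family members and signalling genes, 8 rose and 1 fell under all 3 scalings, with a median 0.84 above all genes (1.03 as deposited or centred). The receptor Osmr (0.86) and the transcription factor Stat3 (0.64) rose, the receptor Lifr fell by 0.97 (-0.28 with a dimmer probe set), and the feedback inhibitor Socs3 (-0.19) did not pass.

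In the NF-kB list, 13 of 25 genes rose and 1 fell under all 3 scalings, 2 were called lower after quantile normalisation and 4 with the replicate block, and the median lay 1.09 above all genes (1.29 as deposited or centred). Subunits and inhibitors of the pathway rose, among them Nfkb2 (1.54), Relb (1.16), Rela (0.90), Nfkbib (1.95), Nfkbie (1.57) and Bcl3 (1.48). The chemokine Ccl5 read 5.86, 6.07 and 6.03 after replating and 2.45, 2.53 and 2.97 in suspension, a rise of 3.33 (SE 0.16, adjusted p = 7.0e-13). Ptgs2, the inducible cyclooxygenase, read 11.03, 11.23 and 11.44 against 9.09, 9.62 and 10.34 and rose by 1.55, from quiescent levels that already exceeded the proliferating mean of 7.34. Some chemokines did not separate the groups. Ccl2, a monocyte attractant, read 8.86, 8.99 and 8.72 against 5.91, 7.44 and 9.11, so the groups overlapped. Its change was 1.37 (adjusted p = 0.030) and 0.58 without quiescent replicate 1. Of the 6 arrays left out in turn, only without quiescent replicate 3 did it stay past the threshold. Cxcl1 (-0.25), Nfkbia (-0.33) and Cxcl2 (0.98) did not pass. Nfkbia and Cxcl2 did with the replicate block (adjusted p = 0.0027 and 0.022), and Cxcl2 also without quiescent replicate 3, at 2.06. Ccl7 rose by 1.71, and by 1.10 without quiescent replicate 1, with overlapping groups. Cxcl12, a chemokine that attracts leukocytes, fell by 1.54 (SE 0.20, adjusted p = 9.5e-07).

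Matrix proteases and genes of the plasminogen system moved in both directions. Of 17 genes, 5 rose and 4 fell under all 3 scalings, the falls being close to the 20.9% of all genes that fell. After quantile normalisation 5 were called lower, and 8 with the replicate block. The median lay 0.16 below all genes after quantile normalisation but 0.04 above them as deposited or centred. Plau, the urokinase plasminogen activator, read 6.08, 6.17 and 5.84 after replating and 3.79, 3.62 and 3.74 in suspension, a rise of 2.31 (SE 0.31, adjusted p = 2.1e-06), or 0.89 with a dimmer probe set. Its receptor Plaur rose by 1.93 (SE 0.14) and its inhibitor Serpinb2 read 5.81, 7.62 and 7.26 against 1.76, 2.00 and 2.35. These genes separated the groups, and Serpinb2 varied most between replated arrays. Timp3, an inhibitor of metalloproteinases, read 11.40, 11.23 and 11.32 against 9.12, 8.95 and 9.10 and rose by 2.26 (SE 0.21, adjusted p = 1.5e-08). The inhibitor Timp1 (0.94) and the metalloproteinase Mmp10 (1.92) rose as well, while the matrix proteases Adamts1 and Mmp11 fell by 1.81 and 1.86. Plat, the tissue plasminogen activator (0.46), and the collagenase Mmp13 (1.14) were called higher after quantile normalisation but not under all 3 scalings. Among 35 matrix genes 3 rose and none fell under all 3 scalings. The rises were thus close to the 9.62% of all genes that rose, while falls were fewer than among all genes. The risers were Tnc, for tenascin C, at 8.30, 8.69 and 9.18 against 6.70, 7.17 and 6.99, and the basement membrane collagens Col4a1 (1.35, or 0.52 with another probe set) and Col4a2 (0.82). Fibronectin, Fn1 (0.04), and the fibrillar collagen genes Col3a1 (0.04) and Col1a2 (-0.02) did not pass.

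**Figure D4:**
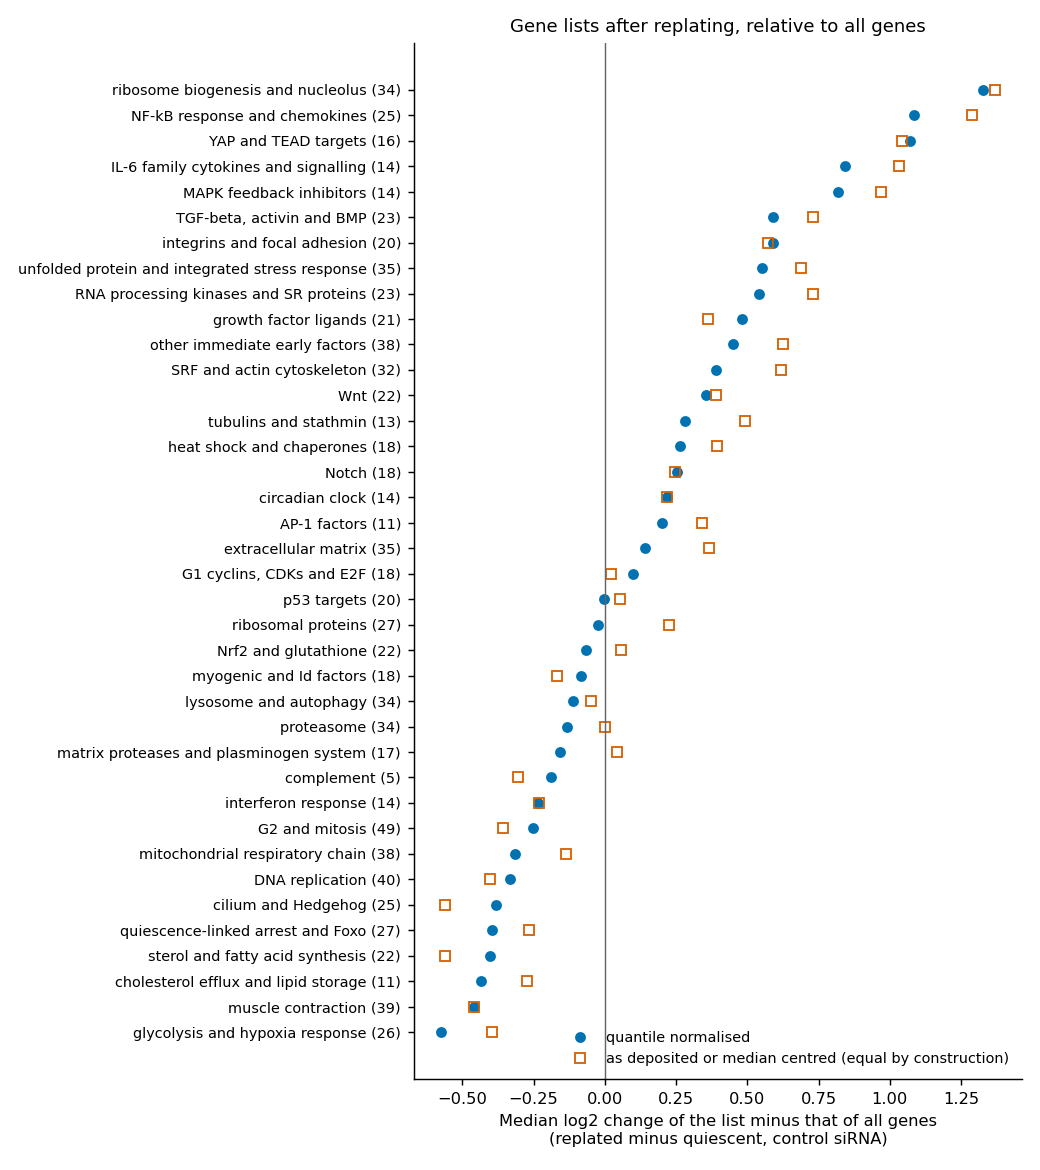
Median change of each of 38 gene lists minus the median change of all genes, replated minus quiescent, control siRNA. Blue circles are after quantile normalisation, orange open squares as deposited or centred, and the number in brackets counts the members tested. Ribosome biogenesis (1.33), NF-kB (1.09) and YAP targets (1.07) lie farthest to the right, and hypoxia and glycolysis (-0.57) farthest to the left after quantile normalisation.

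Of 27 genes linked to arrest, 12 fell and 2 rose under all 3 scalings, with a median 0.39 below all genes (0.27 below as deposited or centred). Cdkn1b, which encodes the CDK inhibitor p27, read 7.40, 7.54 and 7.44 in suspension and 5.67, 5.80 and 5.71 after replating, a fall of 1.73 (SE 0.16, adjusted p = 1.6e-08). The transcription factor Foxo1 read 8.25, 8.50 and 8.60 against 6.87, 6.60 and 6.71 and fell by 1.72 (SE 0.19, adjusted p = 1.4e-07). Sesn1, a sestrin that restrains mTORC1, read 7.81, 7.86 and 7.78 against 5.66, 5.64 and 5.65 and fell by 2.17 (SE 0.15, adjusted p = 3.7e-10). The groups were far apart for each, and Foxo1 stood 0.01 and Sesn1 -0.23 from their proliferating means, neither difference past the threshold after quantile normalisation (adjusted p = 0.95 and 0.17). Txnip, which blocks thioredoxin and glucose uptake, read 8.65, 8.23 and 8.42 in suspension and 5.16, 4.40 and 4.75 after replating and fell by 3.67 (SE 0.19, adjusted p = 2.4e-12). The atypical cyclin gene Ccng2 fell by 1.59, the pocket protein Rbl2 by 1.39 and the Myc antagonist Mxi1 by 1.63. Cdkn2d read 6.06, 6.05 and 6.02 against 3.30, 3.25 and 3.44, and its replated level was also 3.10 below the proliferating mean. The CDK inhibitor Cdkn1a, known as p21, did not follow them. It read 10.62, 10.75 and 10.76 after replating and 10.15, 10.06 and 10.10 in suspension, higher by 0.61 after quantile normalisation but not under all 3 scalings, and above the proliferating mean of 8.35.

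Most cell cycle genes that moved were lower after replating than in suspension, as were most of all genes called alike under all 3 scalings (1799 lower, 827 higher). Among 40 DNA replication genes 17 fell and 2 rose under all 3 scalings (median 0.33 below all genes, 0.40 below as deposited or centred). Among 49 genes of G2 and mitosis 10 fell and 1 rose (0.25 and 0.36 below), and the share that fell is close to the 20.9% of all genes. After quantile normalisation 25 of the 49 were called lower and 4 higher, against 37.1% and 27.2% of all genes. Rrm2, a ribonucleotide reductase subunit, read 6.35, 6.94 and 6.73 in suspension and 5.90, 5.82 and 5.63 after replating, a fall of 0.89 (SE 0.17, adjusted p = 1.1e-04) that left it 4.14 below the proliferating mean. Cdk1, the mitotic kinase, read 4.69, 4.83 and 4.93 against 3.84, 3.68 and 3.75 and fell by 1.06 (SE 0.13, adjusted p = 4.3e-07), ending 5.25 below that mean. For both genes the replated arrays were lowest of the 3 states. The exceptions were the thymidylate synthase gene Tyms, at 3.22, 3.15 and 3.80 after replating and 1.53, 1.06 and 1.34 in suspension, the origin factor Orc6 (1.08) and the mitotic transcription factor Foxm1 (1.27). Tyms was below the 40th percentile on every quiescent array. Of 18 G1 genes, E2f3 rose by 1.26 and the pocket protein Rbl1 fell by 1.72, while 4 were called higher after quantile normalisation and 7 with the replicate block. Cyclin D1, Ccnd1, read 6.25, 6.14 and 6.58 against 5.68, 5.07 and 5.60, higher by 0.88 after quantile normalisation but not under all 3 scalings, and 2.41 below the proliferating mean.

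Ribosome biogenesis gave the most uniform rise. Of 34 genes for ribosomal RNA synthesis and assembly, 31 were called higher and 27 rose under all 3 scalings, with none falling and a median 1.33 above all genes (1.37 as deposited or centred). Ppan, a large subunit assembly factor, read 7.27, 7.28 and 7.65 after replating and 5.29, 5.0 and 4.98 in suspension, a rise of 2.31 (SE 0.15, adjusted p = 1.0e-10). Nop2, a ribosomal RNA methyltransferase, read 6.94, 7.07 and 7.39 against 5.19, 4.94 and 4.85 and rose by 2.14 (SE 0.14, adjusted p = 1.0e-10). Nop58, a box C/D particle protein, read 8.20, 8.66 and 8.79 against 6.84, 6.59 and 6.68 and rose by 1.85 (SE 0.19, adjusted p = 5.3e-08). The replated arrays lay above the quiescent ones in each case, and Ppan and Nop2 passed their proliferating means of 6.30 and 6.56. Rrp12 rose by 2.10, Tsr1 by 2.07, the nucleolar GTPase Gnl3 by 1.87, the polymerase I subunit Polr1b by 1.38 and fibrillarin, Fbl, by 1.25 (0.60 with another probe set). Pes1 (0.05) and Nop16 (-0.06) did not pass. Ribosomal protein genes did not share the rise, with 1 of 27 rising and none falling under all 3 scalings and a median 0.02 below all genes after quantile normalisation but 0.22 above them as deposited or centred.

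Among 23 RNA processing genes 5 rose and none fell under all 3 scalings (median 0.54 above all genes, 0.73 as deposited or centred), including the splicing factor genes Srsf2 (0.92) and Hnrnpu (0.59, and 0.05, 0.27, 0.94 and 2.46 with its other probe sets). In the list for the unfolded protein and integrated stress responses, 11 of 35 rose and 2 fell (0.55 above all genes, 0.69 as deposited or centred). The list joins targets of the transcription factor ATF4 with chaperones and quality control genes of the endoplasmic reticulum. Mthfd2, a mitochondrial folate enzyme, read 7.84, 8.40 and 8.29 after replating and 5.95, 5.69 and 6.01 in suspension and rose by 2.29 (SE 0.18, adjusted p = 1.1e-09), near its proliferating mean of 8.48. The glutathione-degrading enzyme Chac1 rose by 2.26, the amino acid transporter subunits Slc7a5 and Slc3a2 by 1.50 and 1.19, the serine synthesis enzyme Phgdh by 1.43 and asparagine synthetase, Asns, by 1.14. Atf4 itself rose by 0.63 (SE 0.08, adjusted p = 8.4e-07). The amino acid genes Slc7a11 (0.57), Psat1 (0.51) and Aldh18a1 (0.50) were called higher after quantile normalisation but not under all 3 scalings. In the endoplasmic reticulum group Sel1l fell by 0.73 (-0.42 with another probe set) and the chaperone Canx by 0.85, with -0.73 and 0.35 from its other probe sets. Pdia3 (-0.47), Pdia4 (-0.54) and Pdia6 (-0.76), which form disulphide bonds, were called lower after quantile normalisation but not under all 3 scalings. Herpud1 rose by 1.10.

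Of 26 genes of glycolysis and the hypoxia response, 21 were called lower and 10 fell under all 3 scalings, with none rising and a median 0.57 below all genes (0.39 below as deposited or centred). With the replicate block the counts were 21 lower and 2 higher, against 1 higher without it. The glucose transporter Slc2a3 read 8.37, 9.06 and 8.73 in suspension and 6.86, 7.35 and 7.06 after replating, a fall of 1.63 (SE 0.22, adjusted p = 1.7e-06). It stayed 3.58 above the proliferating mean. The prolyl hydroxylase gene Egln3 fell by 1.71, triose phosphate isomerase, Tpi1, by 1.10, pyruvate dehydrogenase kinase Pdk1 by 1.05 (-0.35 with another probe set) and lactate dehydrogenase, Ldha, by 0.99. Other hypoxia-linked genes stayed high, with Slc2a1 at -0.08 and Ndrg1 at -0.10, neither past the threshold, while both lay 2.98 and 4.52 above proliferating cells. Adm read 4.90, 5.57 and 5.03 in suspension and 1.79, 1.57 and 1.50 after replating. Of 38 respiratory chain genes 27 were called lower and none higher after quantile normalisation, against 37.1% and 27.2% of all genes. Under all 3 scalings 7 of the 38 fell and none rose, and only this share that fell is close to that of all genes (20.9%). The list median lay 0.31 below all genes, and 0.14 below as deposited or centred. Ndufa4 (-1.11) and the complex II subunit gene Sdhd (-1.06) fell most among those named.

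In sterol and fatty acid synthesis, 12 of 22 fell and 1 rose under all 3 scalings (median 0.40 below all genes, 0.56 below as deposited or centred). Fdft1, squalene synthase, read 4.45, 4.81 and 4.61 in suspension and 3.88, 3.39 and 3.31 after replating, a fall of 1.09 (SE 0.16, adjusted p = 3.7e-06), ending 3.80 below the proliferating mean. The desaturase Scd2 read 10.31, 10.13 and 10.03 against 9.27, 8.91 and 8.63 and fell by 1.22 (SE 0.14, adjusted p = 2.5e-07), with -0.60 and -0.87 from dimmer probe sets. The groups were separate in both cases. Squalene epoxidase, Sqle, was the riser, at 1.05 (SE 0.13). The cholesterol exporter Abca1 fell by 1.49 (SE 0.12, adjusted p = 2.5e-09) and stayed 5.31 above its proliferating mean.

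Of the 4 Id factors, which bind and block MyoD-type proteins, 3 fell and Id4 (-0.12) did not pass. Id3 read 9.59, 9.44 and 9.37 in suspension and 7.33, 6.69 and 5.93 after replating, a fall of 2.82 (SE 0.27, adjusted p = 1.8e-08). Id2 read 8.73, 8.96 and 8.90 against 6.26, 6.12 and 5.89 and fell by 2.77 (SE 0.17, adjusted p = 6.8e-11). Id1 read 9.42, 9.01 and 8.84 against 7.44, 6.48 and 6.22 and fell by 2.38 (SE 0.30, adjusted p = 7.1e-07). Id3, Id2 and Id1 ended below their proliferating means as well, by -2.63, -2.38 and -1.95. Myod1, the myoblast determination factor, read 7.46, 7.05 and 7.73 after replating and 6.66, 6.29 and 6.59 in suspension and rose by 0.89 (SE 0.19, adjusted p = 4.6e-04), towards its proliferating mean of 7.84. Myf5, a related factor, read 4.68, 4.71 and 4.35 against 5.62, 5.42 and 5.63 and fell by 0.97 (SE 0.13, adjusted p = 1.4e-06). Neither factor had overlapping arrays, and Myog, which marks differentiation, changed by -0.57 (adjusted p = 0.42, and 0.014 with the replicate block). Of 18 myogenic and Id factors, 2 rose and 7 fell under all 3 scalings, with a median 0.08 below all genes (0.17 below as deposited or centred). Of 39 contraction genes 1 rose and 2 fell, the riser being Xirp1, an actin-binding muscle protein (1.73). After quantile normalisation 6 contraction genes were called lower, and 28 with the replicate block.

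Cilium genes that passed the test were all lower. Of 25 cilium and Hedgehog genes, 18 were called lower and 13 fell under all 3 scalings, with none higher and a median 0.38 below all genes (0.56 below as deposited or centred). Ift81, a transport particle subunit, read 6.58, 6.44 and 6.63 in suspension and 5.25, 4.60 and 4.65 after replating and fell by 1.72 (SE 0.16, adjusted p = 1.2e-08). Its partner Ift74 read 6.44, 6.59 and 6.51 against 5.34, 5.49 and 5.57 and fell by 1.05 (SE 0.13, adjusted p = 5.0e-07). Ift88, the gene targeted in the knockdown arm, read 4.16, 3.93 and 3.98 against 3.26, 2.78 and 3.44 in control cells and fell by 0.86 (SE 0.17, adjusted p = 2.0e-04). Each of these separated the groups. Cep290, a transition zone protein, fell by 1.27 and Bbs2 by 0.82, while the Hedgehog genes Smo (-0.06) and Gli1 (-0.13) did not pass. In the Wnt list 4 of 22 rose and 2 fell under all 3 scalings (median 0.35 above all genes, 0.39 as deposited or centred). Ccn4, a Wnt-inducible matricellular gene, read 9.66, 9.55 and 9.39 after replating and 5.61, 5.68 and 5.75 in suspension, Lef1 rose by 1.68, and Dkk2 read 2.56, 3.01 and 1.98 against 5.29, 5.30 and 5.16. In the Notch list 2 of 18 rose and 2 fell (0.25 above all genes, 0.24 as deposited or centred). The rises were close to the 9.62% of all genes that rose, and the falls a smaller share than the 20.9% that fell. The risers were the ligand Jag1 (2.03) and the coactivator Maml1 (0.86), and those that fell were the repressors Hes6 (-1.44) and Hey1 (-1.18).

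The cells carried the markers of myoblasts. Of 11 myoblast markers on the array 8 were detected, Myod1, Myf5 and Des among them, and Pax7, Msc and Met were below the 40th percentile on all 6 arrays. The summed linear level of the list was 1038 to 1169 on replated arrays and 1155 to 1295 on quiescent arrays. Of the 6 endothelial, 6 epithelial and 4 neutrophil and lymphocyte markers none was above the 40th percentile on any of these arrays. Detected were 4 of 11 macrophage markers, with sums of 174 to 191 against 282 to 288, 4 of 7 fibroblast markers, at 209 to 230 against 505 to 526, 2 of 5 adipocyte markers, at 99.3 to 123 against 147 to 166, and 2 of 5 bone and cartilage markers, at 114 to 206 against 175 to 196. The macrophage and fibroblast sums rest mostly on Cd14, at 7.06 log2 after replating and 7.89 in suspension (not past under all 3 scalings), and Pdgfra, which fell from 8.77 to 7.28. Csf1r (0.35), Pi16 (-0.22) and Dpep1 (-0.08) did not pass, while the macrophage marker Clec10a (-0.86) and the fibroblast marker Cd34 (-0.68) fell. Cd68 was higher by 0.72 (limma adjusted p = 3.1e-04) after quantile normalisation but not under all 3 scalings. The part of these markers in the results was not tested.

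The replating change was measured again in IFT88KD cells, on arrays that the control comparison does not share. Replated arrays were dimmer here too, with a mean deposited median of 2.96 log2 against 3.81 on quiescent IFT88KD arrays. The mean Gapdh 3′ minus 5′ difference was 1.26 against 0.55 log2. The part of these shared array properties in the repeat was not tested. In IFT88KD cells 5446 genes differed (63.3%), 2372 higher (27.6%) and 3074 lower (35.8%). Across the 8597 genes the changes in the 2 siRNA treatments correlated with Pearson r = 0.968 and Spearman rho = 0.961, a description across genes, which are not independent replicates. Of the 827 genes that rose in control cells under all 3 scalings, 822 were called higher in IFT88KD cells too, and of the 1799 that fell 1715 were called lower, with none called in the opposite direction. The 15 largest rises had a median of 3.85 log2 in control and 3.57 in IFT88KD cells, and the 15 largest falls -3.25 and -2.79, the shrinkage being of genes picked for their size in the control arrays. Ccn2 rose by 5.59 in IFT88KD cells, Pdgfb by 5.75 and Il6 by 3.65, and Fos fell by 3.25 and Ift81 by 1.71. Myod1 changed by 0.37 there and did not pass (adjusted p = 0.10). No gene differed between the 2 replating changes at an adjusted p under 0.05 in limma (0%), 268 did at an unadjusted p under 0.05 against 429.9 expected, and 5 did as deposited, 4 with centred arrays and 2 with the replicate block. Ccn4 rose by 2.90 in IFT88KD cells against 3.85, a difference with an adjusted p of 0.16. The median SE of these differences was 0.19 log2, and the smallest adjusted p in limma was 0.065. With 3 arrays per group, differences of the size of that SE were not detectable, and the larger one of Ccn4 did not pass either.

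**Figure D5:**
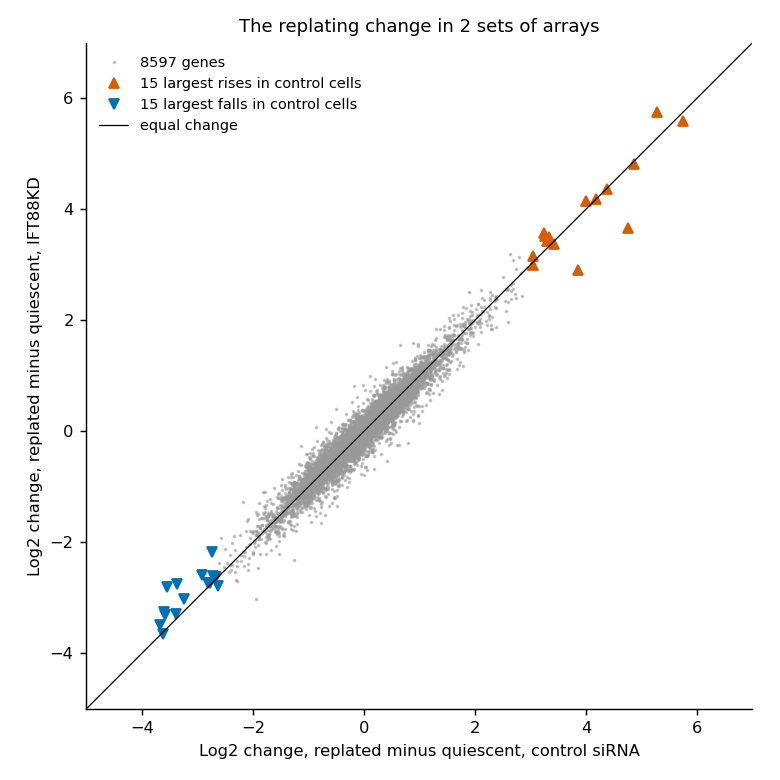
Change on replating in IFT88KD cells against that in control siRNA cells, 1 point per gene, in log2 after quantile normalisation (8597 genes). The points follow the diagonal, with r = 0.968, and all 30 largest changes of control cells were called in the same direction in IFT88KD cells.

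Replated cells were still unlike proliferating cells. Between these groups 6531 genes differed (76%), 3258 higher (37.9%) and 3273 lower (38.1%) in replated cells. These values share the replated arrays with the changes above, so both are given side by side without a test of their relation. Relative to proliferating cells, the median was 2.83 for the NF-kB list, 2.51 for the IL-6 list and 1.96 for the other immediate early factors. It was -2.99 for DNA replication, -5.15 for G2 and mitosis, -2.28 for sterol synthesis and -0.02 for ribosome biogenesis. On replating, the same lists had median changes of 0.98, 0.74, 0.35, -0.44, -0.36, -0.51 and 1.22. After quantile normalisation the median of ribosome biogenesis was thus near the proliferating level, and those of replication and mitosis were far below it.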

How the data were processed

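The 24 RNA samples were labelled from 8 ug of total RNA each and hybridised to Affymetrix mouse arrays, per the labels' protocols. The deposited values are log2 signals of 22690 probe sets. The submitters' processing notes name GCOS, Affymetrix Expression Console and affy, and their versions and the normalisation are not given in the sources used here. Quantile normalisation was added over all 24 arrays. It forces equal distributions, although replated arrays were dimmer, so calls were also made as deposited and with each array centred on its median.

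Of the probe sets, 20380 name 1 gene, 691 several and 1555 none, and 64 are controls. Per gene the brightest probe set was kept, sets with x_at names last, and genes above the 40th percentile on at least 3 of the 24 arrays were tested, 8597 of 12393. Among 290 list genes called alike under all 3 scalings, 115 had another probe set above that level on 3 of the 6 arrays, with the same sign for 107. Among 168 of the genes named in the text and so called, 64 had one, and for 25 a set gave a change smaller by over 1.5 times. Those values stand beside the gene, except for Ankmy2, Egln3, Errfi1, Maml1, Narf, Rab40b, Rgs4, Spsb1 and Wwc1. Symbols were updated through RefSeq identifiers, 29 of which had no match.

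limma 3.58.1 in R 4.3.3 was fitted with a coefficient per group (8 groups of 3) and p-values were adjusted by Benjamini-Hochberg over all genes, with a threshold of 0.05, and tested on simulated data. Only 3 arrays per group limit the precision. Deviations of same-numbered replated and quiescent control arrays correlated at 0.26, 0.41 and 0.14, and those of unequal number at -0.38 to 0.05, so the label's numbers were taken as blocks in an alternative fit. A block joined the same-numbered quiescent and replated arrays of both siRNAs. In each other state it joined the same-numbered arrays of both siRNAs. The correlations given do not cover this joining across siRNAs.

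Named genes are the 15 largest rises and falls among genes past the threshold with no overlap of arrays, detected on at least 3 of 6 arrays and with 1 sign under all scalings, and members of 38 gene lists. The members and lists were chosen with earlier results of these data known. The call under all 3 scalings, the spike-in scaling, the TEAD motif and the printed promoters were chosen after values were seen. Matches to other motifs are not described. RefSeq promoters cover 250 bases before to 50 after the start. Figures were drawn with matplotlib 3.10.9.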

Additional observations from a re-analysis of the deposited data

How the results depend on the processing

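The direction of most genes relative to zero depends on the scaling. In control cells 827 genes were called higher and 5748 lower as deposited, 3981 and 1800 with centred arrays, and 739 higher with arrays set equal on their hybridisation spike-ins. In IFT88KD cells these counts were 869 and 5742, 4074 and 1745, and 571 and 4631. Against proliferating cells, 2020 genes were higher as deposited and 1734 with the spike-in scaling. The count of genes whose replating change differed between siRNAs, 0 in the reported fit, was 5 as deposited, 4 with centred arrays, 1 with a filter at the 60th percentile, 3 with array weights, whose estimation warned of incomplete convergence, and 2 with the replicate block. Pairing by that block gave 6154 genes for control replating and kept the other counts over all genes within 1.5 times, while the lists whose counts it moved further, most of all contraction (6 to 28 lower), are given beside their values. Leaving out 1 array gave 4947 to 5331 genes in control cells (2075 to 2263 higher, 2856 to 3120 lower), 739 to 821 rising and 1550 to 1814 falling under all 3 scalings, 4971 to 5155 in IFT88KD cells (2123 to 2249 and 2802 to 2906), 6188 to 6413 against proliferating cells (3091 to 3188 and 3097 to 3244), and 0 to 1 for the difference, the 1 without IFT88KD replated replicate 1. Of 3798 values of 212 of the named genes under 18 alternatives, 3671 kept sign and side of the threshold. The call was lost by 51 (15 genes) and gained by 71, and 5 of the called reversed. These were Aldh18a1 as deposited (-0.33) and with the spike-in scaling (-0.17), Slc7a11 as deposited (-0.073), Pdia3 with centred arrays (0.052) and Pdia6 with probe sets averaged (0.023), none of them called under all 3 scalings. Of those among the 212 called under all 3 scalings, Vcl lost the call with probe sets averaged, at 0.12. With the spike-in scaling Vcl (0.40), Stat3 (0.50), Hnrnpu (0.47) and Arntl (0.49) lost it. The median of a list relative to all genes changed sign under some alternative for matrix proteases (-0.23 to 0.04), ribosomal proteins (-0.09 to 0.22), p53 targets (-0.36 to 0.05), Nrf2 genes (-0.16 to 0.06), the proteasome and complement, and for none of the other lists. The causes were not tested.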

Other observations

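Of 14 circadian clock genes, 3 rose and 2 fell under all 3 scalings (median 0.22 above all genes under each). Cry1, a repressor of the clock, read 5.74, 5.96 and 5.84 on replated arrays and 4.53, 4.70 and 4.25 on quiescent arrays and rose by 1.35 (SE 0.12, limma adjusted p = 4.4e-09), with Clock and its partner Arntl both at 0.78, Clock at 0.17 with another probe set. The output gene Dbp fell by 1.37 and Per3 by 1.53, while Per1 (-0.04) did not pass. Of 20 p53 targets, 4 rose and 6 fell, with a median 0.00 from that of all genes after quantile normalisation and 0.05 above it as deposited or centred. Those that rose included the death receptor Fas (2.05), which was below the 40th percentile on every quiescent array, and the BH3 protein gene Pmaip1 (1.69), and those that fell included the repair factor Ddb2 (-1.22) and Trp53inp1 (-1.20). Of 13 tubulin and stathmin genes, 4 rose and 2 fell (0.28 above all genes, 0.49 as deposited or centred). Tubb6 read 9.65, 9.45 and 9.64 against 8.11, 7.93 and 7.95 and rose by 1.58, whereas the microtubule destabiliser Stmn1 fell by 0.77. Tubulin genes are near-identical in sequence, so signal may be shared between them.

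Irf1, an interferon-induced transcription factor, read 7.58, 8.00 and 9.26 in suspension and 6.34, 6.27 and 6.45 after replating and fell by 1.93 (SE 0.30, limma adjusted p = 1.0e-05). In its list of 14 genes 1 rose and 3 fell. Of 34 lysosome and autophagy genes none rose and 5 fell, of 34 proteasome genes 1 rose and 1 fell, and of 18 chaperone genes 1 rose, Hspd1 (0.95). After quantile normalisation 1 lysosome gene was called higher and 2 chaperone genes lower, and 4 and 4 with the replicate block. Of 22 Nrf2 and glutathione genes 2 rose and 1 fell, of 11 cholesterol efflux and lipid storage genes 2 fell, and of 5 complement genes none changed under all 3 scalings. Among all genes 9.62% rose and 20.9% fell under all 3 scalings. None of these lists, that of Irf1 included, held a share far above either, so the counts do not set the lists apart from all genes by excess. In the cholesterol efflux list 1 gene was called higher after quantile normalisation and 2 with the block, and in the complement list 2 were called lower and 1 with it.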
